A study of Mus musculus with 16 samples.

Results

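Small leucine-rich proteoglycans are secreted proteins of connective tissue, and 9 of their genes were followed here in 2 cell cultures that shared medium across an insert: *Dcn* (decorin), *Bgn* (biglycan), *Aspn* (asporin), *Lum* (lumican), *Fmod* (fibromodulin), *Prelp*, *Omd* (osteomodulin), *Ogn* (osteoglycin) and *Podn* (podocan). The members were the protein-coding rows with these 9 gene names among the 56941 genes of each table of normalized counts, and all 9 passed the filter on low values in both tables. The immortalized murine pancreatic stellate cell line mPSC1 was cultured alone (PSC, n = 3) or with superior cervical ganglia (PSC+SCG, n = 3). Explants of superior cervical ganglia, the sympathetic ganglia of the neck, came from pups of postnatal day 1 to 4 and were cultured alone (SCG, n = 3), with NIH 3T3 fibroblasts, the control line named MEF in the labels (SCG+MEF, n = 3), or with mPSC1 cells (SCG+PSC, n = 4). Each well with ganglia held 8 to 13 explants, each insert with a cell line held 10000 cells, and the culture lasted about 70 hours. Every PSC library came from 1 cell line, every well with ganglia held several explants, and no genotype or drug differed between the groups. How many ganglia or pups gave the explants of a well is not stated. The labels number the libraries but do not say whether a number stands for a separate culture, so p-values measure the spread between these libraries, which may be technical.

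The core protein of this family is a curved stack of leucine-rich repeats that binds collagen fibrils, and most members carry sugar chains, chondroitin or dermatan sulfate on decorin and biglycan and keratan sulfate on lumican and fibromodulin. Family members set the spacing and thickness of collagen fibrils and hold growth factors such as TGF-beta in the matrix. Fibroblasts and stellate cells are their usual source in the pancreas, and in a peripheral ganglion they are made mainly by the fibroblasts and other stromal cells around the neurons and glia.

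Recovered reads on genes ranged from 31900689 to 41632381 in the 14 libraries where they could be recovered. In the PSC table *Ptprc* (macrophages and other leukocytes) was at 0 in all 6 libraries, and *Th* (the enzyme that starts noradrenaline synthesis) and *Sox10* (glia) did not exceed 3.85 and 0.99 normalized counts, while *Col1a1* ranged from 214481 to 339977. The ganglion libraries held 8836 to 31729 counts of *Th*, 10628 to 17004 of *Sox10* and 46899 to 135431 of *Col1a1*, so neurons, glia and fibroblasts were all present in the explants. In such mixed tissue fewer cells of a type and less RNA per cell cannot be told apart.

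In the genome (GRCm39, GENCODE M39) 7 of the 9 genes lay beside another member, with no other protein-coding gene starting and ending between them. *Aspn* (chr13:49697609-49721057), *Omd* (chr13:49735938-49746298) and *Ogn* (chr13:49761349-49780412) followed each other on the plus strand with gaps of 14.9 and 15.1 kb. *Dcn* (chr10:97315275-97358155) and *Lum* (chr10:97400990-97408577) were 42.8 kb apart, and *Prelp* (chr1:133837335-133857971) and *Fmod* (chr1:133964992-133976015) were 107 kb apart. *Bgn* (chrX:72527208-72539541) and *Podn* (chr4:107871988-107889534) stood alone. Exons of *Ogn* and *Aspn* overlapped those of *Cenpp* on the opposite strand, and *Prelp* those of *Gm15851*. The counting was by strand, and no member shared exon bases with a gene on its own strand.

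Because the 3 genes of the chromosome 13 cluster shared the sign of their difference in every numbered pair of PSC and PSC+SCG libraries, which was seen before the windows were chosen, the 250 bases before their RefSeq starts are shown, on the plus strand of GRCm38.p6, an older build than that of the count tables. Capitals mark letters that match a motif searched for, and RefSeq windows were matched for 7 of the 9 members (not *Dcn* and *Lum*).
Aspn (chr13:49544193-49544442): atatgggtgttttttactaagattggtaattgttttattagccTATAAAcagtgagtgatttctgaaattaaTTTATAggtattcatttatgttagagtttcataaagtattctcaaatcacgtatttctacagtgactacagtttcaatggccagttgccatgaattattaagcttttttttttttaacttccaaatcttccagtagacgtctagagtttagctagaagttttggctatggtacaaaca
Omd (chr13:49582212-49582461): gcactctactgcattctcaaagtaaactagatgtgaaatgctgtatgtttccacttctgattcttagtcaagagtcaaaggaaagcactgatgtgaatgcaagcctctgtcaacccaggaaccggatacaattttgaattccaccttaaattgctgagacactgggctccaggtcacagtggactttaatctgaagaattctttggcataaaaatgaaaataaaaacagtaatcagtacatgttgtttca
Ogn (chr13:49607765-49608014): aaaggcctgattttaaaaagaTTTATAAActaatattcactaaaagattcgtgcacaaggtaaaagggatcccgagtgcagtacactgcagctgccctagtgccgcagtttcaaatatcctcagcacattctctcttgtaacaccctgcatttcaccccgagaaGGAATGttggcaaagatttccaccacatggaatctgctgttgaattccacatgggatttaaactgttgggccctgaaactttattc
On both strands 6 motifs were searched: the TATA box TATAAA, the AP-1 site TGANTCA, the TEAD site GGAATG, the SMAD letters CAGACA and GTCTAGAC, and the cAMP response element TGACGTCA. The TATA letters were present in 12.4% of all 32851 RefSeq windows of this length, the TEAD letters in 12.6%, the AP-1 letters in 6.75%, CAGACA in 17.1%, GTCTAGAC in 0.167% and the cAMP response element in 1.55%. *Aspn* held the TATA letters at 207 bases before the start on the plus strand and at 178 bases on the minus strand. *Ogn* held them at 229 and 227 bases in a stretch where both strands overlap, and the TEAD letters at 86 bases. None of the 6 motifs was found in the windows of *Omd*, *Bgn*, *Fmod*, *Prelp* or *Podn*. The G and C content was 30% for *Aspn*, 38.4% for *Omd* and 42% for *Ogn*, against a median of 52.4% over all windows and 64.4% for *Bgn*.

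*Bgn* was by far the most abundant member in both cultures. Divided by the length of the canonical transcript, its level averaged 66761 normalized counts per kb ± 4475 (SD, n = 6) in the PSC table, rank 6 of the 14532 protein-coding genes with a level and a length, and 19593 ± 4670 (n = 10) in the ganglion table, rank 49 of 15981. Within a library *Bgn* made up 90.9% to 96.8% of the summed level per kb of the 9 genes in stellate cells and 79.8% to 91.2% in ganglia, and its range lay above that of every other member.

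**Figure D1:**
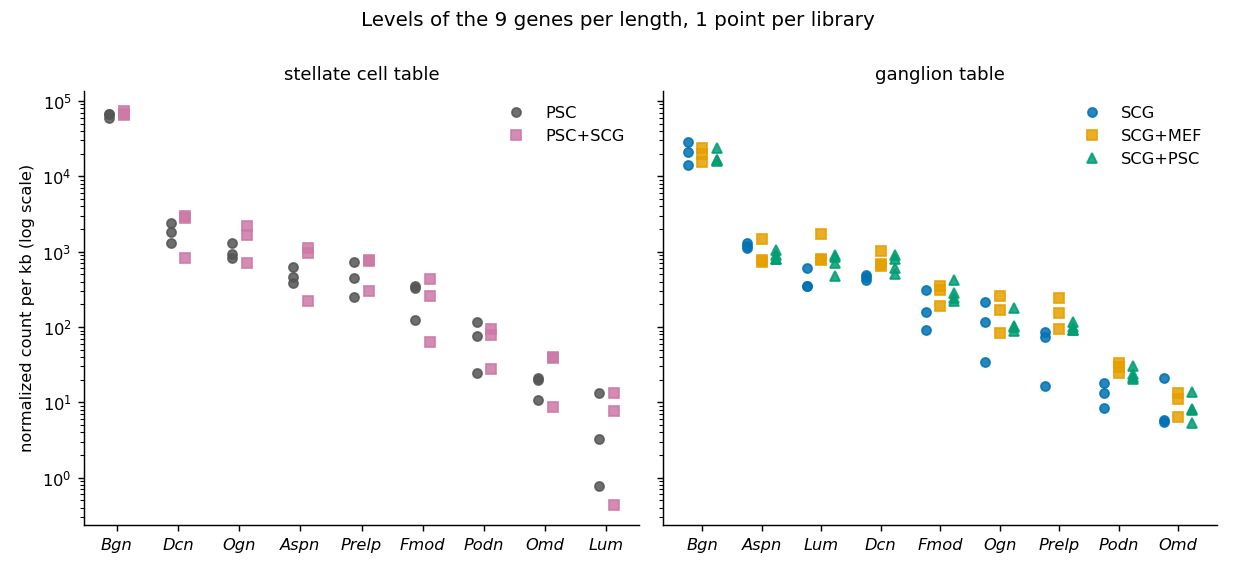
Normalized count per kb of canonical transcript (log scale) of the 9 genes, in the order of their mean level, with 1 point per library and symbols by group. Bgn lies above all other members in both tables, and Lum is last in the stellate cell table but comes after Bgn and Aspn in the ganglion table.

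Below *Bgn* the order differed between the cultures, which were normalized separately, so the orders and not the values are compared. In stellate cells the level per kb fell from *Dcn* (2038) through *Ogn* (1267), *Aspn* (629), *Prelp* (543), *Fmod* (259), *Podn* (69.9) and *Omd* (23.0) to *Lum* (6.45). Each gene was above the next in 6 of 6 libraries except *Aspn*, which was above *Prelp* in 4, although the ranges over libraries of all these neighbours overlapped. In ganglia the order was *Aspn* (1018), *Lum* (752), *Dcn* (654), *Fmod* (256), *Ogn* (135), *Prelp* (107), *Podn* (22.5) and *Omd* (9.81). Here *Aspn* was above *Lum* in 7 of 10 libraries and *Lum* above *Dcn* in 6 of 10, so these 3 were not separated, whereas *Dcn* was above *Fmod* and *Fmod* above *Ogn* in all 10. *Lum*, the keratan sulfate proteoglycan of the cornea and of fibrillar stroma, was thus the least abundant of the 9 in the stellate line, at 0.0209 to 0.223 reads per 100 reads of its neighbour *Dcn*, and reached 30.0 to 68.5 per 100 in ganglia. Lengths enter these orders: with all exons of a gene joined, *Ogn* (1069) came above *Dcn* (955) in stellate cells, and *Dcn* (306) above *Lum* (288) in ganglia.

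The coculture of ganglia with fibroblasts addressed how stromal cells act on sympathetic ganglia. *Lum* and *Dcn*, the neighbours on chromosome 10, had higher counts in both cocultures than in the SCG library of the same number, and so did *Fmod*, *Prelp* and *Podn*, while the class I member *Aspn* was lower with mPSC1 cells in every pair. Without regard to the numbers, no member passed the threshold. With the replicate number as a block, *Lum* was higher in both cocultures and lower with mPSC1 cells than with NIH 3T3 cells, and *Dcn* was higher with NIH 3T3 cells. Same-numbered libraries deviated together over all genes, and both fits are therefore given.

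**Figure D2:**
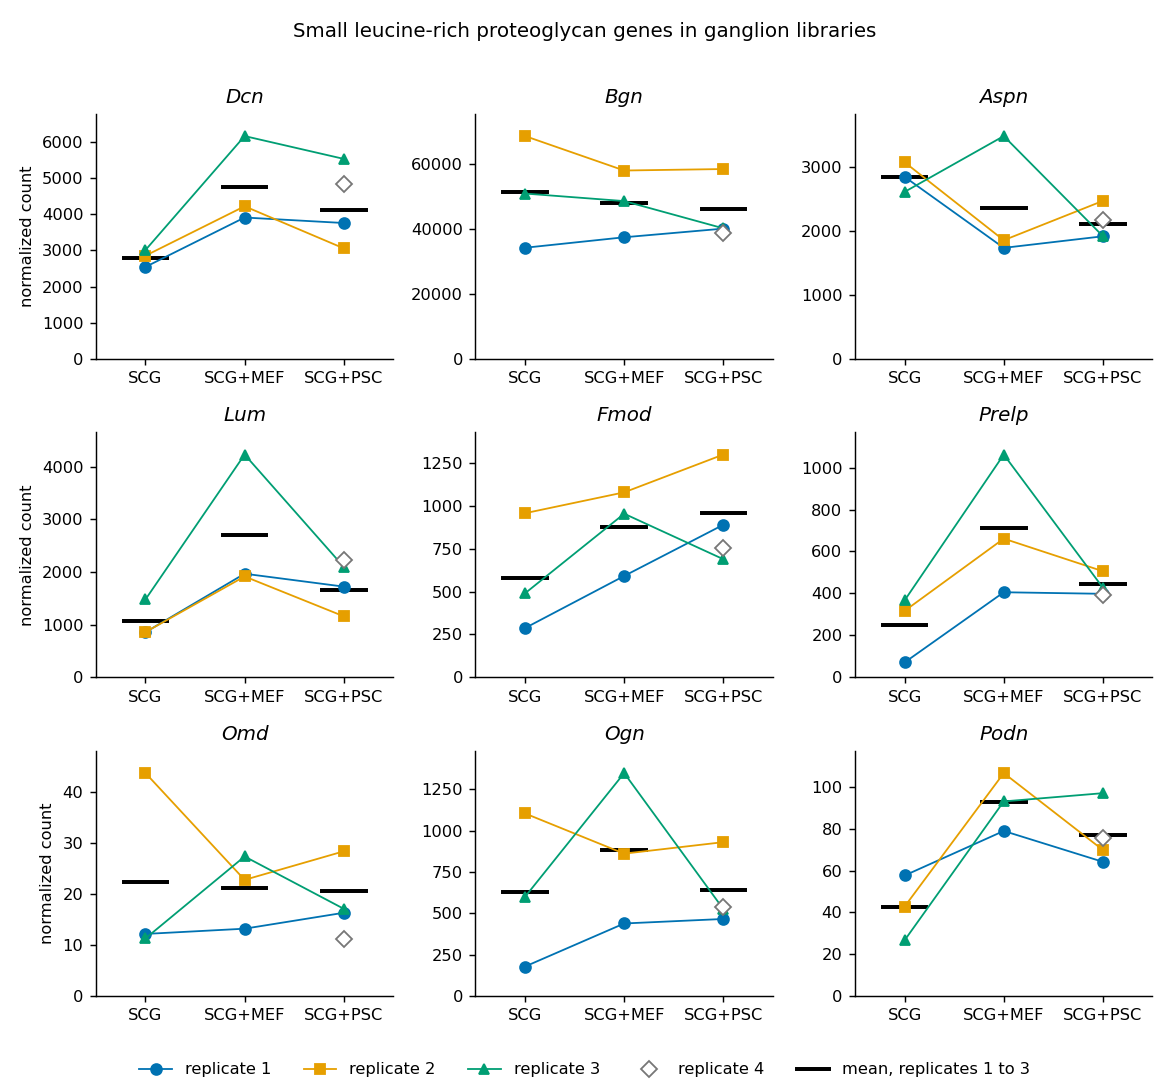
Normalized counts of the 9 genes in SCG, SCG+MEF and SCG+PSC libraries, with 1 point per library, lines joining libraries of the same number and bars at the mean of replicates 1 to 3. SCG+PSC replicate 4 is the open diamond, which is in no fit by default. Lum and Dcn lie higher in SCG+MEF than in SCG for all 3 numbers.

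*Lum* had 856, 858 and 1477 counts in SCG replicates 1 to 3. It had 1966, 1914 and 4228 counts in SCG+MEF, and 1721, 1158, 2097 and 2221 counts in SCG+PSC replicates 1 to 4. The SCG+MEF libraries all lay above the SCG libraries, whereas SCG+PSC replicate 2 lay below SCG replicate 3. By pair the log2 difference of SCG+MEF from SCG was 1.20, 1.16 and 1.52, and that of SCG+PSC was 1.01, 0.43 and 0.50. In the limma fit without the block the log2 fold change with NIH 3T3 cells was 1.29 (95% interval 0.54 to 2.04, adjusted p = 1), and with the block it was 1.29 (1.01 to 1.58, adjusted p = 0.00168). With mPSC1 cells it was 0.65 (-0.10 to 1.40, adjusted p = 1) without and 0.65 (0.36 to 0.93, adjusted p = 0.0302) with the block.

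The difference between the cocultures was tested directly, and *Lum* was lower with mPSC1 than with NIH 3T3 cells in 3 of 3 pairs (-0.19, -0.72 and -1.01). The log2 fold change was -0.64 (95% interval -1.39 to 0.11, adjusted p = 1) without the block and -0.64 (-0.93 to -0.36, adjusted p = 0.0443) with it. The call with NIH 3T3 cells held in 5 of 6 blocked fits that left out 1 library and was lost without SCG+MEF replicate 3 (adjusted p = 0.0675). The call with mPSC1 cells held in 3 of 6, and was lost without SCG replicate 1, SCG replicate 3 or SCG+PSC replicate 1 (adjusted p 0.141 to 0.181). That between the cocultures held only without SCG+PSC replicate 1 (0.0238), and was lost in the other 5 fits (0.110 to 0.288). Over all 27 settings tried for each comparison the adjusted p of *Lum* ranged from 0.00117 to 1 with NIH 3T3 cells, from 0.0170 to 1 with mPSC1 cells and from 0.0238 to 1 between them, and its direction was the same in every setting. With the libraries numbered 3 each in a block of its own, a fit that gives these libraries no weight, all these calls of *Lum* were lost. The values were 1.18 (adjusted p = 0.0656) with NIH 3T3 cells, 0.72 (0.113) with mPSC1 cells and -0.46 (0.272) between them. They describe replicates 1 and 2 alone. Without the block the difference between the cocultures was -0.27 without SCG+MEF replicate 3 and -0.40 without SCG+PSC replicate 2.

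*Dcn*, the decorin gene, whose product binds type I collagen and TGF-beta, had 2544, 2856 and 3012 counts in SCG libraries. With NIH 3T3 cells it had 3913, 4224 and 6170 counts, and with mPSC1 cells 3761, 3059, 5538 and 4849. Each coculture library lay above all 3 SCG libraries. The log2 fold change with NIH 3T3 cells was 0.74, with an interval of 0.24 to 1.24 without the block (adjusted p = 1) and 0.48 to 1.002 with it (adjusted p = 0.0371). With mPSC1 cells it was 0.51, and did not pass in either fit (adjusted p = 1 without and 0.0655 with the block, interval 0.25 to 0.78). It did pass in the blocked fits without SCG replicate 2 (0.66, adjusted p = 0.0227) or SCG+PSC replicate 2 (0.68, adjusted p = 0.00647), and over 27 settings its adjusted p ranged from 0.00647 to 1. Its fold change was 0.28 without SCG+PSC replicate 3 in the fit without the block, and 0.35 without SCG replicate 3 in the fit with it. The call with NIH 3T3 cells was kept in 1 of 6 blocked fits without 1 library, that without SCG replicate 2, and was lost without SCG replicate 1 or 3 or any SCG+MEF library (0.145 to 0.361). It was also lost with the libraries numbered 3 apart (0.59, adjusted p = 0.233), and over 27 settings the adjusted p ranged from 0.0211 to 1. Between the cocultures *Dcn* differed by -0.23 (interval -0.49 to 0.04 with the block), which did not exceed the replicate error.

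The reads of *Lum* per 100 reads of *Dcn*, which do not depend on the normalization, were 33.6, 30.0 and 49.0 in SCG, 50.2, 45.3 and 68.5 in SCG+MEF and 45.8, 37.8, 37.9 and 45.8 in SCG+PSC replicates 1 to 4. The ratio was higher in SCG+MEF than in SCG in each numbered pair, and in SCG+PSC it was higher in pairs 1 and 2 and lower in pair 3.

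*Prelp*, which anchors basement membranes to collagen, had 70.9, 317 and 367 counts in SCG, 406, 661 and 1062 in SCG+MEF and 398, 506, 427 and 394 in SCG+PSC. Every coculture library lay above the SCG libraries, and SCG replicate 1 was the lowest of all 10. The log2 fold change was 1.70 with NIH 3T3 cells (adjusted p = 1 without and 0.0774 with the block) and 1.12 with mPSC1 cells (adjusted p = 1 and 0.149). Without SCG replicate 1 these values were 0.95 and 0.37 in the fit without the block, so this library decided much of their size. With mPSC1 cells *Prelp* passed in 1 blocked fit, that without SCG+PSC replicate 3 (1.53, adjusted p = 0.0245), and over 27 settings its adjusted p ranged from 0.0245 to 1.

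*Podn*, a proteoglycan of vessel walls and other stroma, was scarce, at 57.7, 42.8 and 26.6 counts in SCG, 79.1, 107 and 93.3 in SCG+MEF and 64.3, 69.9, 97.2 and 75.6 in SCG+PSC. Again no coculture library reached down to the SCG values. Its log2 fold changes of 1.17 with NIH 3T3 cells and 0.89 with mPSC1 cells did not pass (with the block, adjusted p = 0.263 and 0.262), and the value with mPSC1 cells was 0.51 in the blocked fit without SCG replicate 3. *Fmod*, which shares the collagen site of *Lum*, had 288, 959 and 491 counts in SCG, 592, 1081 and 956 in SCG+MEF and 891, 1302, 690 and 753 in SCG+PSC. It was higher in each numbered pair, but SCG replicate 2 lay among the cocultures, and the log2 fold changes of 0.72 and 0.85 did not pass (with the block, adjusted p = 0.350 and 0.0834). With mPSC1 cells *Fmod* passed in 2 of 6 blocked fits, those without SCG replicate 2 (1.09, adjusted p = 0.0366) or SCG+PSC replicate 3 (1.09, adjusted p = 0.0222), and over 27 settings the adjusted p ranged from 0.0222 to 1. In the fit without the block the values with NIH 3T3 and mPSC1 cells were 0.31 and 0.44 without SCG replicate 1, and 1.17 and 1.30 without SCG replicate 2.

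*Aspn*, a calcium-binding member with no typical sugar attachment site, was lower with mPSC1 cells in 3 of 3 pairs and with NIH 3T3 cells in 2 of 3. It had 2852, 3081 and 2617 counts in SCG and 1920.5, 2476, 1923 and 2172 in SCG+PSC, and these groups did not overlap. With NIH 3T3 cells the counts were 1739, 1859 and 3492, so 2 libraries lay below and 1 above all SCG libraries. The log2 fold change was -0.44 with mPSC1 cells (95% interval -0.87 to -0.01 with the block, adjusted p = 0.445) and -0.34 with NIH 3T3 cells (-0.77 to 0.09, adjusted p = 0.740), and neither passed. Per 100 reads of *Dcn* the libraries held 112, 108 and 86.9 reads of *Aspn* in SCG, 44.4, 44.0 and 56.6 in SCG+MEF and 51.1, 80.9, 34.7 and 44.8 in SCG+PSC, a ratio looked at after the values were seen. Each coculture library was below all SCG libraries in this ratio.

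The remaining members did not separate the groups. *Ogn*, which takes part in collagen fibril assembly, had 177, 1104 and 599 counts in SCG, 438, 861 and 1349 in SCG+MEF and 465, 931, 526 and 540 in SCG+PSC. Its level differed more between numbers than between groups, with replicate 1 the lowest of replicates 1 to 3 in each group. The log2 fold changes were 0.70 with NIH 3T3 cells (95% interval 0.01 to 1.40 with the block) and 0.32 with mPSC1 cells (-0.37 to 1.01), and without SCG replicate 1 they were -0.03 and -0.41 in the fit without the block. *Omd*, a keratan sulfate member known from bone, stayed between 11.1 and 43.8 counts, and its direction depended on the setting. *Bgn*, the close relative of *Dcn*, had 34154, 68507 and 50825 counts in SCG, 37374, 57910 and 48506 in SCG+MEF and 40031, 58363, 40126 and 38555 in SCG+PSC. Its log2 fold changes were -0.06 with NIH 3T3 cells (interval -0.29 to 0.17 with the block) and -0.11 with mPSC1 cells (-0.35 to 0.12). Without the block the intervals were -0.64 to 0.52 and -0.69 to 0.46. A change of 0.5 either way on the log2 scale lay outside both intervals with the block. Without the block, only a rise of 0.5 with mPSC1 cells lay outside its interval.

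**Figure D3:**
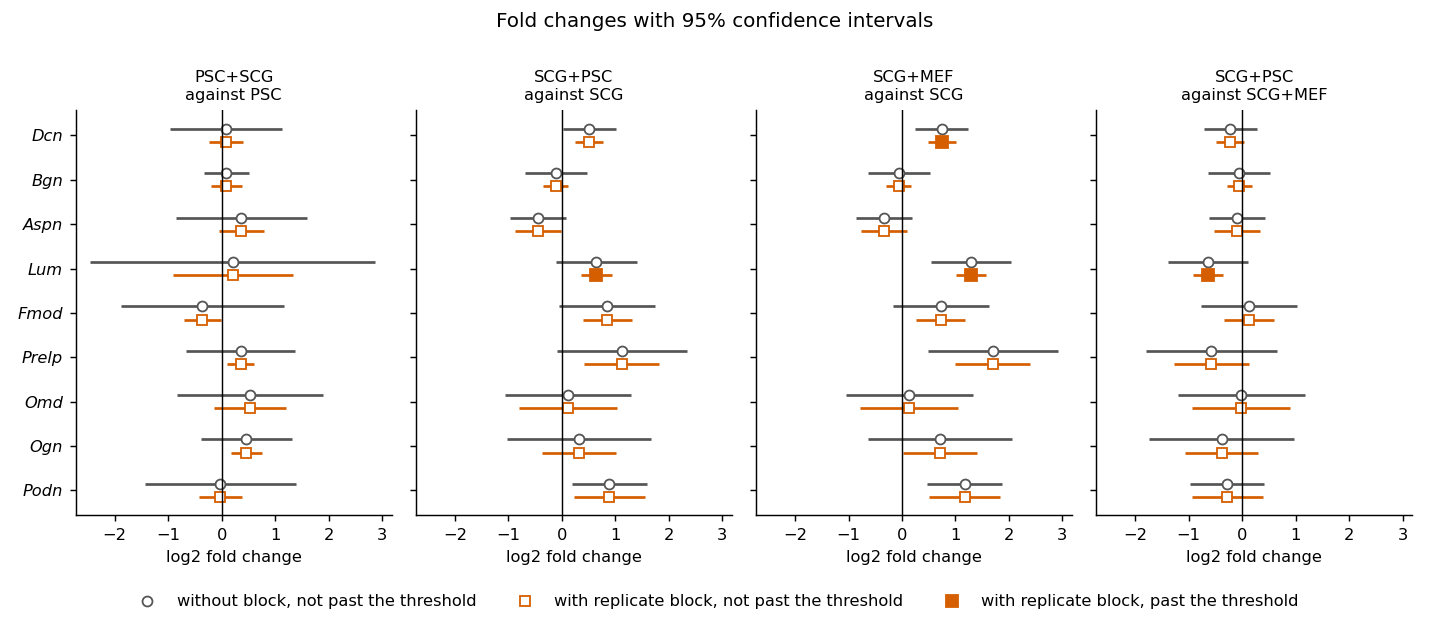
Log2 fold change and 95% confidence interval of the 9 genes in the 4 comparisons, without the replicate block (grey circles) and with it (orange squares), filled where the gene passed the threshold. The 4 filled squares are Lum in 3 comparisons and Dcn in SCG+MEF against SCG, and in the stellate cells Bgn has the narrowest interval of the 9 without the block.

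Over the ganglion comparisons the counts of members read as follows against all 23491 genes tested. Past the threshold (a log2 difference of 0.5 or more either way, with an adjusted p not above 0.05) limma without the block called 0 of 9 members in SCG+PSC against SCG (0.0128% of all genes), 0 in SCG+MEF against SCG (0.0128%) and 0 in SCG+PSC against SCG+MEF (0%), and edgeR and DESeq2 on recovered reads without a block called 0 members as well. At an unadjusted p under 0.05 there were 2 members with mPSC1 cells (*Podn* and *Dcn*, 4.01% of all genes), 4 with NIH 3T3 cells (*Prelp*, *Podn*, *Dcn* and *Lum*, 3.00%) and 0 between the cocultures (3.21%). The groups did not overlap for 4 members with mPSC1 cells (7.66% of all genes), for 4 with NIH 3T3 cells (6.63%) and for 0 between the cocultures (7.36%). With the block, 1 member passed with mPSC1 cells (1.33%), 2 with NIH 3T3 cells (0.162%) and 1 between the cocultures (0.788%). With the libraries numbered 3 apart, so on replicates 1 and 2 alone, limma called 0 members in each of the 3 comparisons (0.119%, 0.0255% and 0.00851% of all genes). The sign was the same in all 3 pairs for 6 members with mPSC1 cells (32.3%), for 5 with NIH 3T3 cells (27.4%) and for 3 between the cocultures (33.0%). The median log2 fold change over the 9 members was 0.51 with mPSC1 cells and 0.72 with NIH 3T3 cells, against 0.00 and 0.02 over all genes tested. The first 2 comparisons share the SCG libraries, so their likeness is not independent evidence.

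Markers of several cell types differed alongside these values. The summed counts of 14 fibroblast markers, members left out, were 262417, 480204 and 342619 in SCG, 358082, 494895 and 377892 in SCG+MEF and 385430, 486438 and 408110 in SCG+PSC replicates 1 to 3, and so were higher in both cocultures in each pair. Of these markers 11 had a positive log2 fold change with mPSC1 cells (median 0.27) and 10 with NIH 3T3 cells (median 0.19), 2 (*Tcf21* and *Dpt*) stayed under 10 counts in every ganglion library, and 1 (*Fbln1*, fibulin 1, log2 fold change 0.59) passed with the block, with mPSC1 cells. The summed counts of 6 pericyte and mural cell markers ranged from 19455 to 41134 in SCG, 15390 to 26066 in SCG+MEF and 17776 to 19831 in SCG+PSC, and all 6 had a negative log2 fold change in both cocultures (median -0.51 and -0.54), beside the lower *Aspn*. Of 7 endothelial markers 6 were positive with mPSC1 cells (median 0.98) and *Emcn* was lower (-0.48), while their summed counts overlapped (3475 to 4394 in SCG and 4129 to 4395 in SCG+PSC). With NIH 3T3 cells 6 of the 7 were also positive (median 0.54). Of 13 markers of sympathetic neurons, 13 were positive with NIH 3T3 cells (median 0.15), 6 with mPSC1 cells (median 0.00) and 0 between the cocultures (median -0.19), beside the values of *Lum*, and none passed with or without the block. Their summed counts overlapped, at 122707 to 290651 in SCG, 179295 to 271676 in SCG+MEF and 141220 to 251595 in SCG+PSC. Of 9 glial markers *Fabp7*, a fatty acid binding protein, passed with the block, lower in SCG+MEF than in SCG (-0.50, adjusted p = 0.0338) and higher in SCG+PSC than in SCG+MEF (0.56, adjusted p = 0.0219). None of these markers was at 0 in all ganglion libraries. The part of these cell types in the results was not tested.

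The stellate cell comparison addressed how sympathetic ganglia act on activated stellate cells. With ganglia, *Ogn*, *Aspn*, *Omd* and *Dcn* were higher in replicates 1 and 2 and lower in replicate 3, and no member passed the threshold with or without the block. *Bgn* and *Prelp* were higher in 3 of 3 pairs. Earlier results of *Ogn* and *Aspn* in these libraries were known when the members were chosen, so their direction here is not independent evidence.

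**Figure D4:**
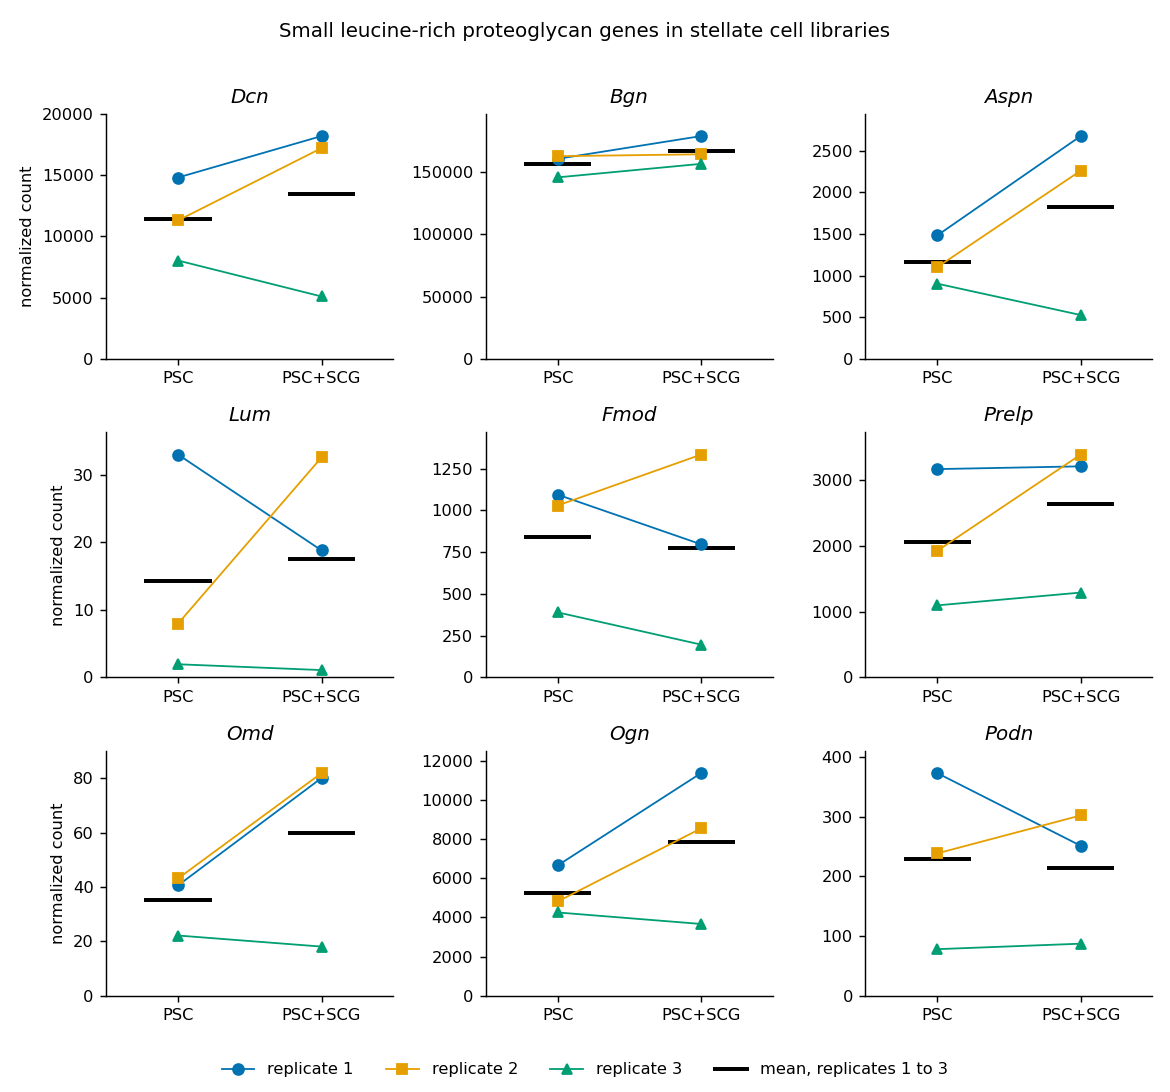
Normalized counts of the 9 genes in PSC and PSC+SCG libraries, with 1 point per library, lines joining libraries of the same number and bars at the group mean. Replicate 3 is the lowest library of its group for each of the 9 genes.

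*Ogn* had 6657, 4818 and 4257 counts in PSC replicates 1 to 3 and 11379, 8552 and 3669 in PSC+SCG. The first 2 PSC+SCG libraries lay above all PSC libraries and the one numbered 3 below them. *Aspn* showed the same order, with 1481, 1100 and 903 counts in PSC and 2676, 2260 and 526 in PSC+SCG. *Omd*, the middle gene of the cluster, was scarce at 40.6, 43.1 and 22.2 counts in PSC and 80.1, 81.9 and 18.1 in PSC+SCG. By pair the log2 differences were 0.77, 0.83 and -0.21 for *Ogn*, 0.85, 1.04 and -0.78 for *Aspn* and 0.96, 0.91 and -0.28 for *Omd*. The 3 neighbours thus had the same sign in each pair, and so did *Dcn* on chromosome 10 (0.30, 0.61 and -0.66).

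None of these genes passed the threshold without or with the block, although the blocked interval of *Ogn* lay above 0. The log2 fold change of *Ogn* was 0.46 (95% interval -0.39 to 1.32, adjusted p = 0.9999) without the block and 0.46 (0.17 to 0.75, adjusted p = 0.174) with it. For *Aspn* it was 0.37 (-0.86 to 1.60, adjusted p = 0.9999) and 0.37 (-0.05 to 0.79, adjusted p = 0.694). A fit that put the libraries numbered 3 each in a block of its own was listed with earlier results of these libraries known. It gives no weight to the pair in which *Ogn* and *Aspn* were lower, so it describes replicates 1 and 2 and is no test of the comparison as a whole. In this fit, with 1 residual degree of freedom, *Ogn* (0.80, adjusted p = 1.76e-07) and *Aspn* (0.95, adjusted p = 4.42e-08) passed. *Dcn* (0.45, adjusted p = 0.0179) stayed under the fold threshold. Here limma took the error of each gene almost wholly from all genes tested. These p-values therefore do not measure the spread of *Ogn* and *Aspn* between their own libraries. The blocked fits without PSC replicate 3 or without PSC+SCG replicate 3 rest on the same 2 pairs and hold the same fold changes, so they add no evidence. Neither gene passed in the 4 blocked fits that left out another library (adjusted p from 0.753), where the fold change of *Ogn* was 0.28 to 0.31. Over 22 settings the adjusted p ranged from 1.40e-07 to 0.99999 for *Ogn* and from 1.46e-08 to 0.99999 for *Aspn*.

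*Dcn* had 14812, 11305 and 8027 counts in PSC and 18198, 17212 and 5090 in PSC+SCG, with a log2 fold change of 0.08 (95% interval -0.23 to 0.39 with the block). *Bgn* had 160776, 162892 and 145866 counts in PSC and 179078, 164419 and 156738 in PSC+SCG. It was the steadiest member, with an SD of 5.93% of the mean in PSC and 6.81% in PSC+SCG, where the other members had 23.9% to 115%. Its log2 fold change was 0.09 (interval -0.33 to 0.51 without and -0.19 to 0.37 with the block).

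Of the remaining members, *Prelp* had 3168, 1924 and 1094 counts in PSC and 3210, 3390 and 1289 in PSC+SCG. Its log2 fold change was 0.36 (adjusted p = 0.9999 without and 0.272 with the block). The blocked interval was 0.10 to 0.61, so it lay above 0 like that of *Ogn*. *Fmod* had 1095, 1030 and 389 counts in PSC and 797, 1335 and 196 in PSC+SCG, and was lower in pairs 1 and 3 and higher in pair 2. Its log2 fold change was -0.36 (interval -0.71 to -0.0048 and adjusted p = 0.583 with the block). *Podn* had 373, 238 and 78.0 counts in PSC and 251, 302 and 87.2 in PSC+SCG. *Lum* had few counts, with 32.98, 7.95 and 1.93 counts in PSC and 18.8, 32.6 and 1.06 in PSC+SCG, and its log2 fold change of 0.21 (interval -0.92 to 1.33 with the block) did not exceed the spread between libraries.

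The spread followed the library number. Replicate 3 had the lowest count of its group in both PSC and PSC+SCG for 9 of 9 members, and for 25.4% of the 21273 genes tested, a count looked at after the values were seen. The summed fibroblast markers were also lowest there, at 533559 against 724723 and 756849 in PSC and at 481763 against 697730 and 788491 in PSC+SCG. By contrast, the summed markers of activated stellate cells were highest in replicate 3 of both groups. They were 156026 against 124074 and 122088 in PSC and 195606 against 116064 and 100344 in PSC+SCG. The labels tie no library to a date or passage. Across the 9 members 6 were higher with ganglia in pair 1, 9 in pair 2 and 3 in pair 3, with median log2 differences of 0.16, 0.82 and -0.28, where the median over all genes tested was -0.01, -0.01 and 0.

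Of the members, 0 passed the threshold in limma without the block (0% of the 21273 genes) and 0 with it (0.461%), and 2 passed with replicate 3 in blocks of its own (2.30%). At an unadjusted p under 0.05 without the block there were 0 members (1.92% of all genes), for 0 members the groups did not overlap (5.60%), and for 2 members the sign was the same in all 3 pairs (26.6%). The median log2 fold change over the members was 0.21, against -0.01 over all genes tested.

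Genes around the family were followed on 7 lists, 133 genes in all, of which 119 were tested in stellate cells and 128 in ganglia. Without the block none of them passed in any of the 4 comparisons, and their median log2 fold changes per list lay between 0.08 and 0.19 in PSC+SCG against PSC, between -0.15 and 0.23 in SCG+PSC against SCG, between -0.06 and 0.13 in SCG+MEF against SCG and between -0.05 and 0.18 between the cocultures. With the block 5 of 119 were higher in PSC+SCG, where 0.461% of all genes tested passed either way. In SCG+PSC against SCG 3 of 128 were higher (1.33% of all genes), and in SCG+MEF against SCG 1 of 128 was higher (0.162%). Between the cocultures 2 of 128 were higher and 2 lower with mPSC1 cells (0.788%).

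The proteases that process or cleave these proteoglycans held the most of these calls, with 3 of 13 tested higher in stellate cells with ganglia. *Mmp3* (stromelysin 1) averaged 550 ± 396 (SD, n = 3) counts in PSC and 2704 ± 1590 in PSC+SCG, a log2 fold change of 2.31 (adjusted p = 0.9999 without and 1.36e-06 with the block). *Adamts9*, a protease that cuts large proteoglycans, was higher by 0.59 (adjusted p = 0.00474 with the block), and *Mmp13* by 1.13 (0.0223). In ganglia with mPSC1 cells 2 of 14 proteases were higher with the block, *Mmp12* (macrophage elastase), from 736 ± 409 to 1785 ± 47.6 counts (log2 fold change 1.49, adjusted p = 0.0156), and *Adamts9* (0.53, adjusted p = 0.0368). Beside them the macrophage marker *Mrc1* was higher by 1.15 (adjusted p = 0.00999 with the block), while 2 of the 9 macrophage markers had a positive log2 fold change, and the part of macrophages was not tested. *Bmp1*, the protease that trims the precursors of *Bgn* and *Ogn*, differed by 0.19 in stellate cells and by 0.12 and -0.03 in ganglia with mPSC1 and NIH 3T3 cells, and passed nowhere.

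Of the 27 genes tested that build chondroitin and dermatan sulfate, none passed in any comparison with or without the block. *Dse*, which makes dermatan from chondroitin, differed by 0.11 in stellate cells and by -0.05 and 0.02 in ganglia with mPSC1 and NIH 3T3 cells, and *Ugdh*, which makes the sugar precursor, by 0.03, 0.05 and 0.07. Of the keratan sulfate list 1 of 8 was higher in PSC+SCG with the block, the sialyltransferase *St3gal1* (log2 fold change 0.65, adjusted p = 0.00165), and 0 of 10 passed in ganglia.

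Collagens and their partners gave 1 of 19 higher in PSC+SCG, *Tnxb* (tenascin X, 0.65, adjusted p = 0.0181 with the block), 1 higher in SCG+MEF against SCG, *Col6a2* (0.60, adjusted p = 0.00935), and 1 higher in SCG+PSC against SCG+MEF, *Col11a1* (0.51, adjusted p = 0.0285). *Col1a1*, the main partner of *Dcn* and *Lum* in fibrils, averaged 89425 ± 42648 (SD, n = 3) counts in SCG, 98674 ± 31986 in SCG+MEF and 108155 ± 22596 in SCG+PSC, and 303890 ± 57131 in PSC against 280855 ± 63062 in PSC+SCG, and no difference passed. Among the ligands and receptors that bind family members, *P2rx7*, an ATP receptor that binds *Bgn*, was higher in SCG+PSC than in SCG (0.57, adjusted p = 0.0162 with the block) and than in SCG+MEF (0.63, 0.0227). *Met*, the receptor of hepatocyte growth factor (-0.81, 0.0363), and the growth factor *Bmp4* (-0.99, 0.0353) were lower in SCG+PSC than in SCG+MEF. *Tgfb1* and the *Bgn* receptor *Tlr4* passed nowhere, with log2 fold changes between -0.15 and 0.26 in all 4 comparisons. None of the other proteoglycan core proteins passed with or without the block. The same held for the other small leucine-rich proteoglycans, of which *Tsku* was the most abundant in stellate cells (1598 to 2254 counts) and *Chadl* together with *Tsku* in ganglia (470 to 1082 and 491 to 836), while *Kera* and *Epyc* did not exceed 6.92 and 13.1 counts in any library.

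The genes whose log2 counts followed those of a member most closely, by the smallest root mean square difference of centred values among protein-coding genes with a mean of at least 100, were sought over the libraries of each table. Over the 6 PSC libraries they were *Abca9* (0.11), *Tcp11l2* (0.15) and *Pdgfra* (0.16) for *Ogn*, *Bche* (0.19), *Rgs4* (0.22) and *Abca9* (0.23) for *Aspn*, *Samd12* (0.09), *Rnase4* (0.09) and *Rgs4* (0.13) for *Dcn*, and *Gpr19*, *Sec61a2* and *Pigb* (0.02 to 0.03) for *Bgn*. Among members *Dcn* was the nearest to *Aspn* (0.22). Over the 9 ganglion libraries with a number from 1 to 3 they were *Emcn* (0.16), *Irag1* (0.17) and *Rpl9-ps6* (0.19) for *Aspn*, *Ripor2* (0.24), *Mfap5* (0.25) and *Fbln5* (0.28) for *Ogn*, and *Tfpi*, *Rem1* and *Myl12a* (0.08 to 0.09) for *Bgn*. These libraries share their groups, numbers and normalization, and the likeness is a description.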

How the data were processed

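RNA was sequenced from 6 stellate cell and 10 ganglion libraries (TruSeq Stranded mRNA). Per the study's methods, the authors aligned reads with STAR 2.7.10b to GRCm39, counted them by strand and normalized them with DESeq2 1.38.3 in R 4.2.2. The deposited unit is a normalized count (signal), scaled per table, so tests were run within a table. Whole reads were recovered for 14 of 16 libraries.

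Values were tested as log2(normalized count + 1) with limma 3.58.1 (R 4.3.3) over genes with a summed count of at least 10, with Benjamini-Hochberg adjustment over all genes tested. Genes past the threshold had a log2 difference of 0.5 or more either way with an adjusted p not above 0.05. The 9 ganglion libraries numbered 1 to 3 shared 1 fit. A fit with the replicate number as a block was set beside it: same-numbered libraries deviated together (mean correlations 0.34, 0.22, 0.32 and 0.16 in the 4 comparisons, every pair over 0.1). The study's model held the experimental batch, but the labels tie no library to one. edgeR 4.0.16 and DESeq2 1.42.0 on recovered reads were alternatives in ganglia. The script was tested on simulated data. The members and lists were chosen with earlier results of these data known. Named were the 9 members, list genes past the threshold (at most 4 a list and comparison, without and then with the block), Bmp1, Dse, Ugdh, Col1a1, Tgfb1 and Tlr4 as fixed examples, and the 3 genes most like Ogn, Aspn and the 2 most abundant members. Fbln1, Mrc1, Emcn, Fabp7, Tcf21, Dpt, Tsku, Chadl, Kera and Epyc were named after their values were seen. Intervals are 95% confidence intervals of the fits.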

Additional observations from a re-analysis of the deposited data

Results flagged for a closer look

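In the 4 SCG+PSC libraries, replicate 2 stood apart for Ogn (931 counts, where the others had 465 to 540) and for Bgn (58363, where the others had 38555 to 40126). The gap to the nearest library made up 0.840 of the whole range for Ogn and 0.921 for Bgn, and chance alone gives such a gap in about 1 in 20 groups.

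SCG+PSC replicate 4 entered none of the fits with 9 libraries. Its counts of Dcn (4849), Lum (2221), Prelp (394) and Podn (75.6) were above those of all 3 SCG libraries.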

How the results depend on the processing

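The fit with the replicate block, which pairs libraries of the same number, moved the count of members past the threshold from 0 to 1 in SCG+PSC against SCG, from 0 to 2 in SCG+MEF against SCG and from 0 to 1 in SCG+PSC against SCG+MEF, and changed no other call of a member. edgeR with this block gave 1, 2 and 1. The fit with the libraries numbered 3 apart gave 2 in PSC+SCG against PSC and 0 in each ganglion comparison. Each call of Lum and Dcn with the block was thus lost in it. In stellate cells and ganglia alike it describes replicates 1 and 2 alone, with 1 and 2 residual degrees of freedom. Leaving out 1 library without the block gave 0 to 0 members in each comparison. With the block, an alternative added after the data were seen, it gave 0 to 2 members in PSC+SCG against PSC, 0 to 3 in SCG+PSC against SCG, 0 to 2 in SCG+MEF against SCG and 0 to 1 in SCG+PSC against SCG+MEF. In the same order, these blocked fits called 39 to 470, 34 to 374, 5 to 51 and 0 to 301 of all genes tested. Over all genes, the calls in stellate cells were 0 without and 98 with the block, and 490 with the libraries numbered 3 apart. For ganglia with mPSC1 cells, ganglia with NIH 3T3 cells and the difference of the cocultures, they were 3, 3 and 0 without the block, 313, 38 and 185 with it, and 28, 6 and 2 with the libraries numbered 3 apart. In these 3 comparisons DESeq2 gave 56, 22 and 18, edgeR with the block 327, 36 and 212, and fits of only the groups compared 1, 1 and 0. In SCG+PSC against SCG adjustment over protein-coding genes gave 6 and all 4 SCG+PSC libraries gave 8. The cause was not tested.

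Some uncalled log2 fold changes changed sign. Bgn in PSC+SCG against PSC was -0.060 after quantile normalization. Omd in SCG+PSC against SCG was -0.11 with the libraries numbered 3 apart, -0.082 with all 4 SCG+PSC libraries, -0.13 in edgeR, -0.13 in DESeq2 and -0.0040 in edgeR with the block. Omd in SCG+MEF against SCG was -0.40 with the libraries numbered 3 apart, -0.097 in edgeR and -0.089 in DESeq2. In SCG+PSC against SCG+MEF the fit with the libraries numbered 3 apart gave 0.099 for Ogn, 0.28 for Aspn, 0.055 for Bgn and 0.30 for Omd. Leaving out 1 library, without or with the block, gave ranges that crossed 0. In PSC+SCG against PSC they were -0.061 to 1.11 for Aspn, -0.24 to 0.68 for Dcn, -0.94 to 0.44 for Fmod, -0.65 to 1.42 for Lum, -0.66 to 0.53 for Podn and -0.034 to 0.81 for Prelp. In SCG+MEF against SCG they were -0.32 to 0.18 for Bgn, -0.027 to 1.29 for Ogn and -0.29 to 0.74 for Omd. In SCG+PSC against SCG they were -0.38 to 0.12 for Bgn, -0.41 to 0.90 for Ogn and -0.26 to 0.72 for Omd. In SCG+PSC against SCG+MEF they were -0.33 to 0.28 for Aspn, -0.24 to 0.093 for Bgn, -0.18 to 0.37 for Fmod and -0.36 to 0.41 for Omd.

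Count tests were not run on the stellate cell table, since whole reads were not recovered for PSC+SCG replicate 1, and SCG+PSC replicate 4 was left out of the count tests for the same reason. The blocked fits left 2 residual degrees of freedom in stellate cells and 4 in ganglia, and limma drew part of each gene's error from all genes tested. Lum in stellate cells and Omd in ganglia had at most 32.98 and 43.8 counts and a wide spread between libraries, and the part of depth in that spread was not tested.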
